A study of Eurytemora affinis with 15 samples.

Results

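The genes described here are 101 of the 23728 genes in the deposited table, those whose level in the second control pool stood at least 1.8 times above the higher of the other 2 control pools. They were taken from the genes with a mean normalised count of at least 100 over all libraries, leaving out the 100 genes of highest mean, which left 11849 eligible genes. A limit of 120 genes was set and was not reached. The members were thus chosen by their values in the 3 control pools, so every control value below is a description, and no test against the controls is given.

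The animals were adult males of Eurytemora affinis, a copepod taken from the Seine estuary, and each library came from a pool of 30 whole males. Control animals were held in water alone, and the others were kept for 72 h in sediment elutriate, the water phase made from sediment, of either Fatouville or Tancarville, at 350 or 2500 mg/L. The 5 groups had 3 pools each, named Control 1 to 3 and by site, concentration and replicate for the rest, and the labels call them biological replicates. All animals shared one field origin, the same acclimatisation and the same algal food, and no genotype or exact age was given.

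Eurytemora affinis is a small calanoid copepod that dominates the plankton of many estuaries and lives in and near suspended sediment. A whole-body pool mixes gut, muscle, cuticle, nervous system and gonad, so a transcript level is an average over all tissues of all animals in the pool. Copepods stop moulting once adult, while feeding, digestion and the making of sperm go on in adult males. In such bulk samples, fewer cells of a type and less RNA per cell cannot be told apart. No source used here pairs the identifiers with gene names, so no member could be given a role, and tissue or cell type markers were not checked.

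The libraries held from 13.64 to 17.21 M reads in genes, a range of 1.26-fold, and no label gave a sequencing batch. Tancarville 2500 mg/L pool 3 and Fatouville 350 mg/L pool 3 lay farthest from the median member profile, the first above it and the second below it. Where leaving out 1 pool moved a members' median or the log2 value of a named member by over 1.5 times, the most extreme values are given beside it. Near-identical or overlapping genes can share reads, and this was not tested.

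The label of an abundant block raised in Control 2 held in part. The members' mean normalised count had a median of 593 and ran from 107 to 14715. In Control 2 itself, 36 of the 101 members had a normalised count below 100, so those members met the limit of 100 through other libraries. Control 2 was the highest of all 15 libraries for 1 member and among the 3 highest for 3 members. Its median rank was 8 of 15, the middle of the series. Taken relative to each gene's median over the 12 exposed libraries, the median member stood at 0.884 in Control 2, at 0.314 in Control 1 and at 0.322 in Control 3. Control 2 was thus high among controls and ordinary among exposed pools for these genes.

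**Figure D1:**
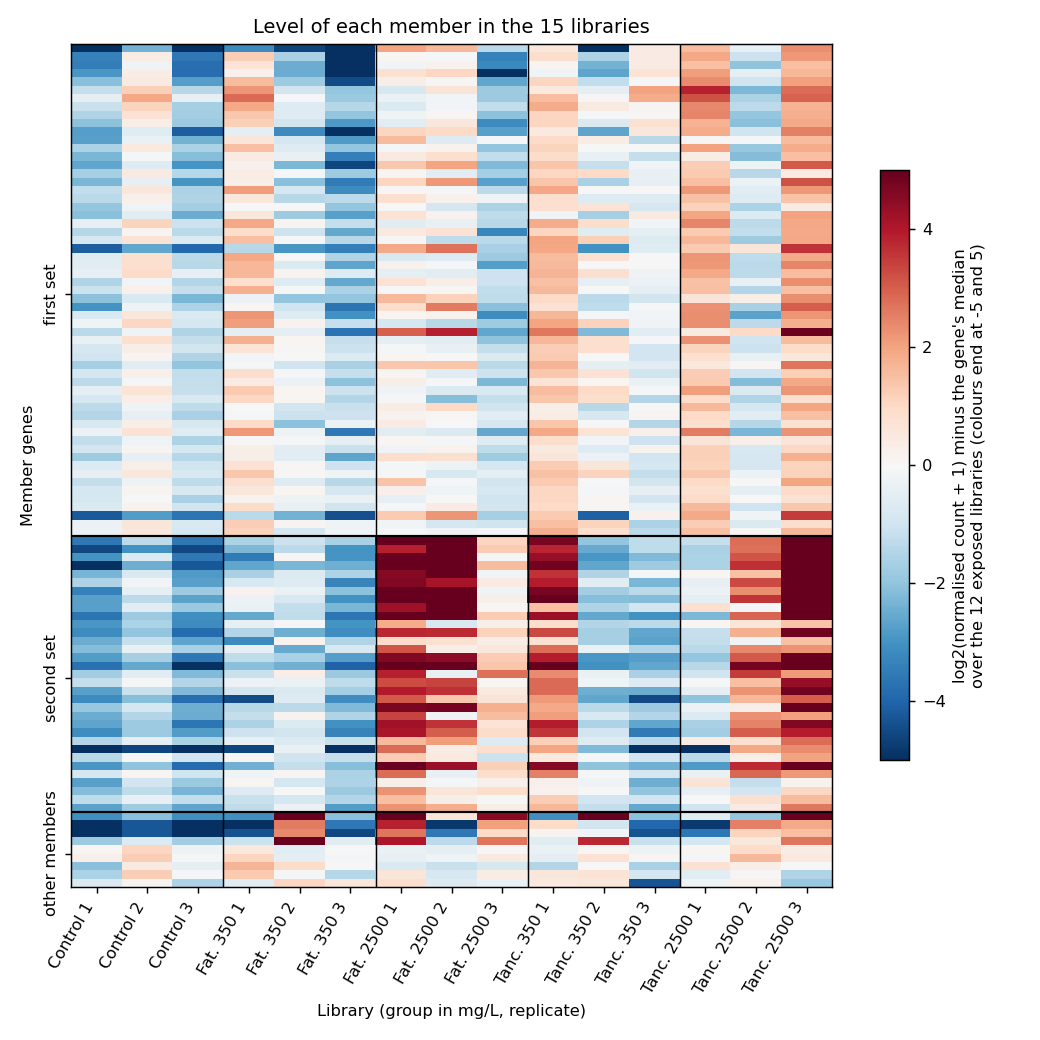
Level of each of the 101 members (rows) in the 15 libraries (columns), as log2(normalised count + 1) minus the gene's median over the 12 exposed libraries, with colours ending at -5 and 5. Horizontal lines part the first set (59 genes), the second set (33 genes) and 9 other members; Control 1 and Control 3 are blue for most members, and Tancarville 2500 mg/L pool 3 is red for most.

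The ratio that chose the members had a median of 2.36 over the 98 members for which it was defined. It was at least 2 in 78 members, at least 3 in 26 and at least 5 in 12. The last member inside the threshold was LOC111717944, with a ratio of 1.81. The first genes outside it were LOC111714667, with a ratio of 1.79, and LOC111710327, with a ratio of 1.78. The values therefore ran on without a break across the threshold. The same rule gave 15 genes with Control 1 as the raised pool and 157 with Control 3. Of the 100 most abundant genes, which the rule left out, 3 also met the ratio, with values from 2.45 to 2.89.

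Counting error mattered for the less abundant members. The lower 95% counting bound of the ratio, from the exact binomial interval on the recovered reads, was above 1 in 87 members and above 1.8 in 46. Control 2 held fewer than 20 reads for 16 members. These bounds cover counting error only. For 3 members the ratio had no value, because Control 1 and Control 3 both had 0 reads. LOC111716025 had 4 reads in Control 2, LOC111702768 had 2 and LOC111700989 had 1. These 3 members entered the list on a handful of reads. The highest defined ratio was 15.96 in LOC111717860 (95% counting interval 5.14 to 80.2), from 47 reads in Control 2 against 3 in Control 1 and 1 in Control 3.

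**Figure D2:**
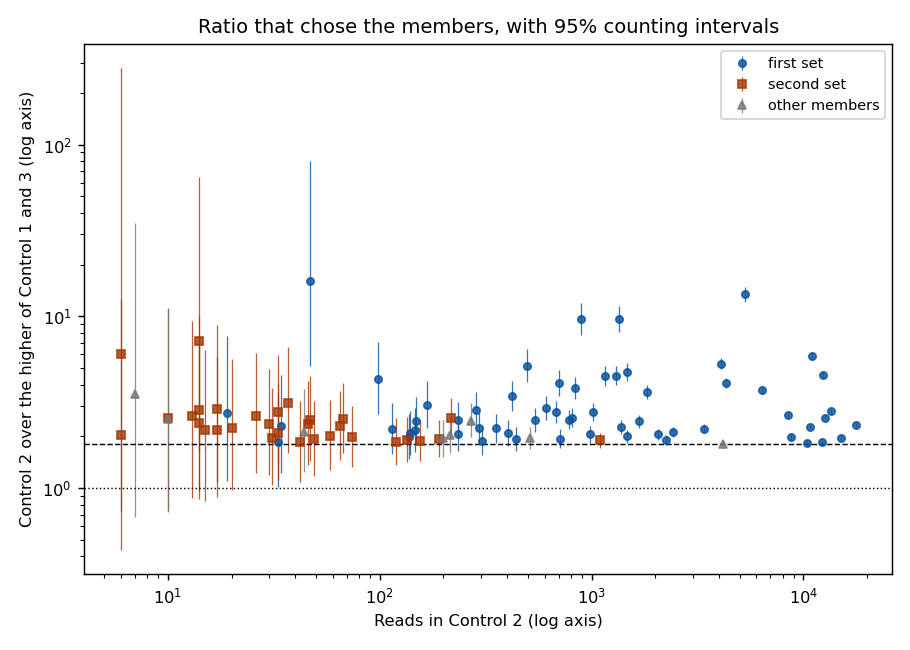
Ratio of Control 2 to the higher of Control 1 and Control 3 (vertical, log axis) against the reads in Control 2 (horizontal, log axis) for the 98 members with a defined ratio; bars are 95% counting intervals, the dashed line is 1.8 and the dotted line is 1. Intervals reach 1 or below for several members with few reads, most of them in the second set, while all 59 first-set members stay above 1.

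Over the 12 exposed libraries the members split into several patterns, drawn by average-linkage clustering on their correlation, with the tree taken at a height of 0.6. A first set held 59 members, a second set held 33, and 9 members fell into 3 minor sets. At a tree height of 0.4 the largest sets held 59 and 31 members. The sets were drawn from the same exposed values that are described below, so differences between sets are descriptions and carry no test.

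The first set was the abundant one, with a median mean count of 1053. Its median normalised count was 249 in Control 1, 855 in Control 2 and 207 in Control 3. In the Fatouville pools it was 1469, 525 and 150 at 350 mg/L and 997, 1015 and 231 at 2500 mg/L, in the order of pools 1 to 3. In the Tancarville pools it was 1745, 580 and 559 at 350 mg/L and 2247, 363 and 2329 at 2500 mg/L. In this median count, every exposed group held both a pool above and a pool below Control 2. Taken gene by gene relative to the exposed median, the set's median was 1.19 in Control 2. It was 1.06, 0.995 and 0.396 in the Fatouville 2500 mg/L pools, all below Control 2. Fatouville 350 mg/L pool 3 lay below every control in the median count. Control 2 exceeded the exposed median for 37 of the 59 genes.

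The second set was sparse in the controls and varied far more. Its median normalised count was 12.2 in Control 1, 31.6 in Control 2 and 11.4 in Control 3. In the Fatouville pools it was 29.9, 42.3 and 12.5 at 350 mg/L and 814, 673 and 107 at 2500 mg/L. In the Tancarville pools it was 423, 20.4 and 18.7 at 350 mg/L and 32.5, 211 and 1379 at 2500 mg/L. All 3 Fatouville 2500 mg/L pools, Tancarville 350 mg/L pool 1 and Tancarville 2500 mg/L pools 2 and 3 had medians above 100, while the other exposed pools lay between 12.5 and 42.3, near the control values. Control 2 was below 100 for 27 of these 33 genes, and it exceeded the exposed median for 1 of them. For 22 of the 33 the lower counting bound of the Control 2 ratio was above 1, against 59 of 59 in the first set.

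**Figure D3:**
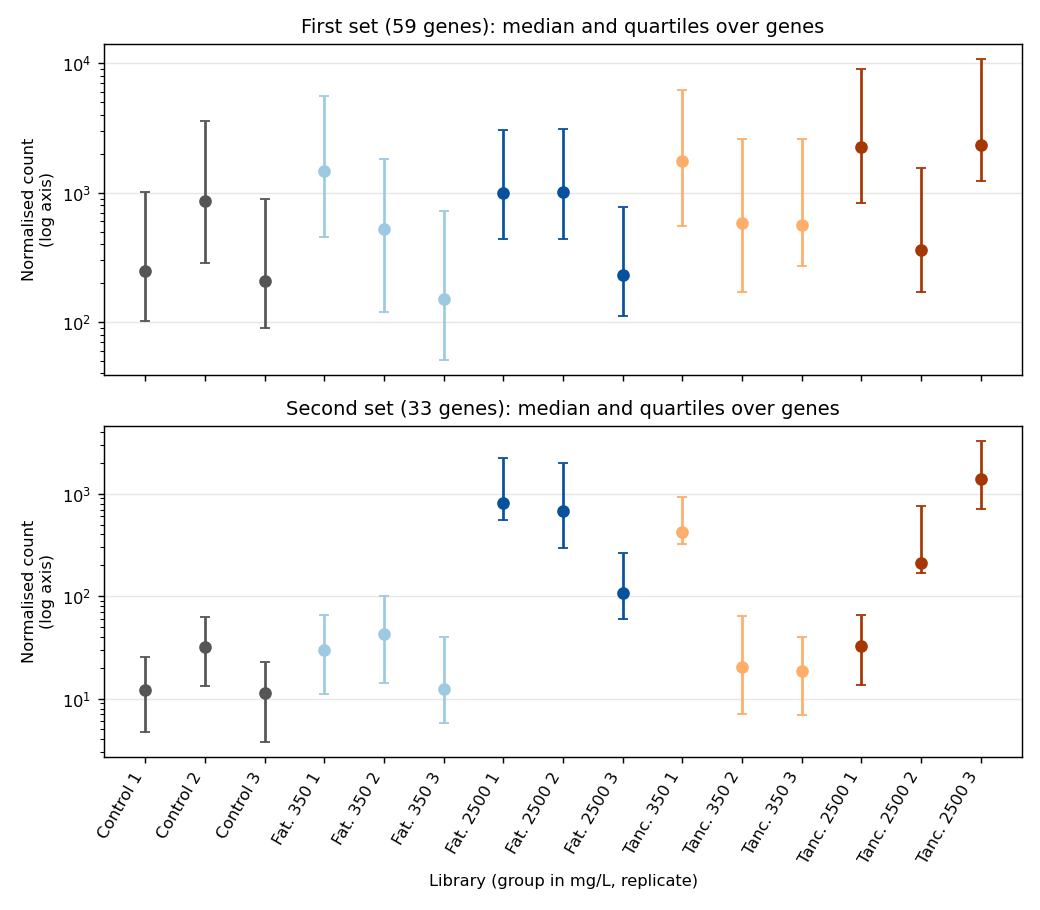
Median (point) and quartiles (bars) over genes of the normalised count (log axis) in each of the 15 libraries, for the first set (59 genes, upper panel) and the second set (33 genes, lower panel). By this median count, the first set has a pool above and a pool below Control 2 in every exposed group. The second set is at 1379 in Tancarville 2500 mg/L pool 3 and at 31.6 in Control 2.

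The members took 1.19% of all reads in genes in Control 2, 0.444% in Control 1 and 0.362% in Control 3. In the exposed libraries their share ran from 0.380% in Fatouville 350 mg/L pool 3 to 3.16% in Tancarville 2500 mg/L pool 3. The Tancarville 2500 mg/L pools had the widest range, from 0.586% to 3.16%. The first set supplied most of these reads in every library, for example 1.14% of reads in Control 2 against 0.0164% for the second set. A share of reads is a level summed over genes, and it was set by the few most abundant members.

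The 2 most abundant members were LOC111716345 and LOC111715800, both in the first set. LOC111716345 had normalised counts of 7237, 16907 and 4487 in the controls. It had 35667, 9516 and 3726 at Fatouville 350 mg/L and 4535, 3238 and 2453 at Fatouville 2500 mg/L. It had 32568, 18515 and 7347 at Tancarville 350 mg/L and 42065, 3398 and 29060 at Tancarville 2500 mg/L. The Fatouville 2500 mg/L pools were all low and close together, and each of the other exposed groups spread over several-fold.

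For LOC111715800 the controls were 7372, 14423 and 5844. At 350 mg/L it had 25141, 10327 and 8348 for Fatouville and 27022, 21018 and 4283 for Tancarville. At 2500 mg/L it had 9332, 5579 and 7101 for Fatouville and 25045, 8070 and 21711 for Tancarville. Control 2 lay above all Fatouville 2500 mg/L pools for both genes, and it lay inside the range of each of the other exposed groups.

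LOC111708728 and LOC111718024, also of the first set, followed the median profile of the other members most closely, with Pearson's r of 0.96 and 0.95 over the 12 exposed libraries. LOC111708728 had 293, 751 and 300 in the controls, 1469, 535 and 139 at Fatouville 350 mg/L and 1367, 1026 and 401 at Fatouville 2500 mg/L. It had 2286, 615 and 668 at Tancarville 350 mg/L and 2310, 643 and 4198 at Tancarville 2500 mg/L. Pool 1 was the highest in every exposed group but Tancarville 2500 mg/L, pool 3 was the lowest in both Fatouville groups, and the ranges of all 4 exposed groups overlapped. LOC111718024 showed the same order of pools at Tancarville 2500 mg/L, with 1017, 514 and 1993, against 219, 423 and 207 in the controls.

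Many members of the second set, though not all, reached their high values from near 0. LOC111705620, named after its values were seen, was at 80.7, 207 and 68.1 in the controls. LOC111716025 was at 0, 3.82 and 0 in the controls and at 2.99, 4.70 and 2.89 at Fatouville 350 mg/L. It was at 707, 1454 and 24.4 at Fatouville 2500 mg/L. It was at 323, 2.04 and 3.93 at Tancarville 350 mg/L and at 4.48, 81.7 and 2694 at Tancarville 2500 mg/L. It was thus low in every control and in 6 of the 12 exposed libraries. LOC111702768 was at 0, 1.91 and 0 in the controls and had its highest value, 1275, in the same pool, Tancarville 2500 mg/L pool 3.

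LOC111717860, the member of highest defined ratio, belonged to the first set but had few reads in the controls, at 2.82, 44.9 and 0.946. It had 24.96, 8.47 and 1.93 at Fatouville 350 mg/L and 935, 723 and 92.3 at Fatouville 2500 mg/L. It had 351, 4.08 and 314 at Tancarville 350 mg/L and 682, 175 and 1163 at Tancarville 2500 mg/L. Control 2 was the highest control and ranked 9 of 15 overall.

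The 9 remaining members followed neither set. A minor set of 4 genes, LOC111700989 among them, was low in all 3 controls. It was high in Fatouville 350 mg/L pool 2, Fatouville 2500 mg/L pools 1 and 3 and Tancarville 2500 mg/L pool 3. LOC111700989 had 1677 in Fatouville 350 mg/L pool 2, 0 and 0.965 in the other 2 pools of that group, and 426 in Tancarville 350 mg/L pool 2. It had 293 and 196 in Fatouville 2500 mg/L pools 1 and 3 and 257 in Tancarville 2500 mg/L pool 3. A minor set of 3 genes held LOC111711607, LOC111709217 and LOC111706338. LOC111709217 and LOC111706338 had the lowest correlations with the members' profile, with r of -0.10 and -0.04.

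LOC111711607 was the 1 member with its highest level of all in Control 2, at 206, against 101 and 81.4 in Control 1 and Control 3. Its exposed pools ran from 66.8 to 183. LOC111709217 had its second highest value in Control 2, at 489, below the 634 of Tancarville 2500 mg/L pool 2. LOC111695328, named after its values were seen, was the other member with Control 2 among its 3 highest libraries, at 259. These 3 genes fitted the label of a block raised in Control 2 most closely.

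**Figure D4:**
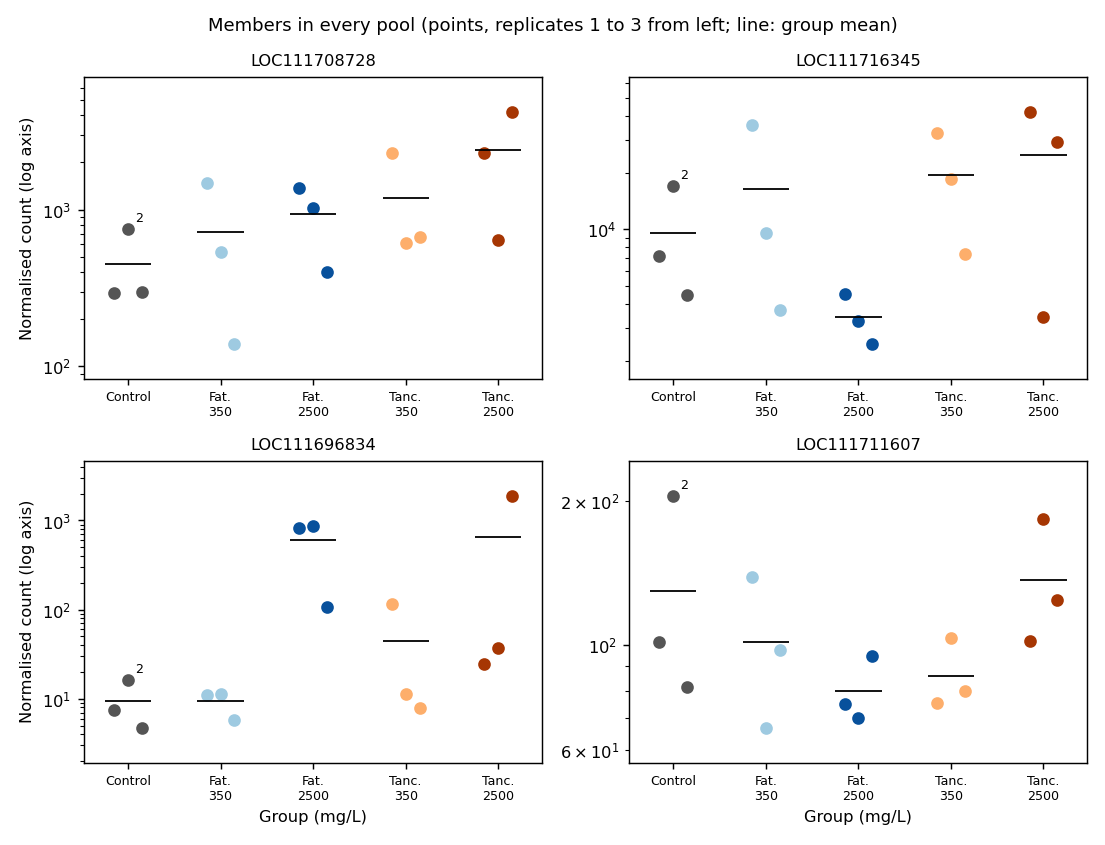
Normalised count (log axis) of LOC111708728, LOC111716345, LOC111696834 and LOC111711607 in every pool, by group (horizontal, mg/L); points are pools 1 to 3 from left to right, lines are group means and the number 2 marks Control 2. Control 2 is the highest pool only for LOC111711607, at 206.

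Exposed pools of the same group also differed widely from each other for these genes. The standard deviation between pools of a group, on the log2(normalised count + 1) scale, had a median of 1.58 over the members. It was 1.37 in the first set and 2.44 in the second, against 0.181 over all eligible genes. This standard deviation was at least 1 in 84 members, or 83.2%, and in 2.97% of all eligible genes. The exposed pools played no part in the ratio that chose the members, though they did count towards the mean count. Differences between the 4 exposed groups accounted for a median of 29.8% of each member's variance over the exposed libraries, against 39.1% over all eligible genes. That share was 24.6% in the first set and 41.8% in the second. Most of the variation thus lay between pools of the same group, for the median member as for the median eligible gene.

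**Figure D5:**
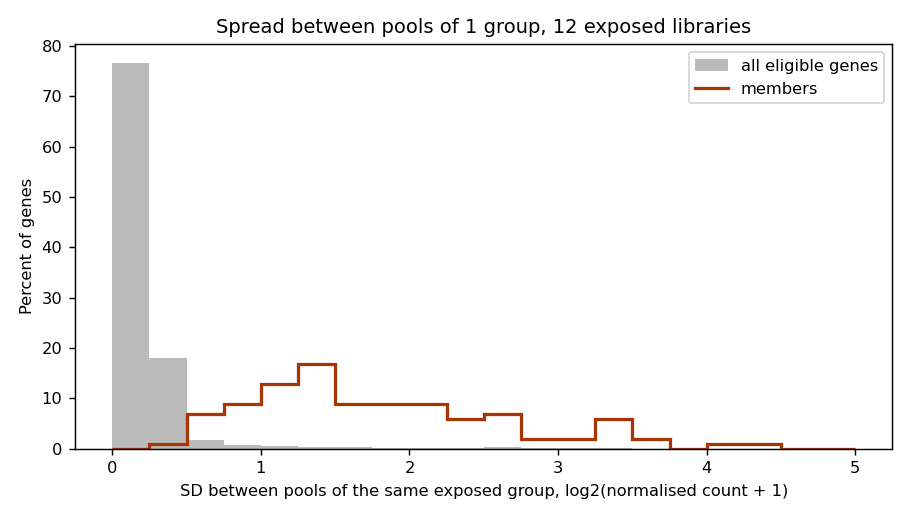
Distribution over genes (vertical, percent of genes) of the standard deviation between pools of the same exposed group on the log2(normalised count + 1) scale (horizontal), for all 11849 eligible genes (grey) and the 101 members (line). The median is 1.58 for members and 0.181 for all eligible genes.

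The members moved together from pool to pool. Over the 12 exposed libraries, the median Pearson's r between pairs of members was 0.52, and it was 0.52 again with the group means subtracted. It was 0.76 within the first set, 0.86 within the second and 0.33 between them. All members of a library share its scaling, and the sets were drawn from these correlations, so the values within sets are descriptions. The median r of a member with the median profile of the others was 0.73, and it was at least 0.5 in 90 members and below 0.2 in 8. Leaving out the 2 pools farthest from the median profile lowered that median to 0.58.

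Many other genes followed the profile of the second set. Among the 11748 eligible genes outside the list, 113 had r of at least 0.9 with the median profile of the second set and 11 with that of the first. The 113 genes had a median ratio of Control 2 to the higher other control of 1.01, and 60 of them, or 53.1%, were highest in Control 2 among the controls. For the 11 genes the median ratio was 1.35, and 9 were highest in Control 2. Over all eligible genes outside the list that share was 28.0%. The threshold of 1.8 thus took only some of the genes with these profiles. Control 2 was below 10 for 28 of the 113 genes, so their ratios rest on few reads. Not all members followed so closely themselves. With their own set's profile, 22 of 59 in the first set and 22 of 33 in the second reached r of 0.9.

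Cook's distance, in the authors' deposited table, scores the influence of each library on the fit of a gene. It was largest in Control 2 for 7 members. Tancarville 350 mg/L pool 1 had the largest distance for 32 and Fatouville 350 mg/L pool 1 for 31. The same counts over all eligible genes were not made. In the first set these 2 exposed pools had the highest median level of their groups, 1745 and 1469. Many of the 32 members were of the second set. Its median was 423 in Tancarville 350 mg/L pool 1, against 20.4 and 18.7 in pools 2 and 3 of that group. In Fatouville 350 mg/L pool 1 it was 29.9, below the 42.3 of pool 2.

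Levels relative to the exposed median were then summarised by group, as the mean over 3 pools of the members' median log2 level. It was -1.16 ± 0.85 (SD, n = 3) in Control and -0.79 ± 1.05 (SD, n = 3) at Fatouville 350 mg/L. For Tancarville 350 mg/L it was 0.02 ± 1.19 (SD, n = 3), for Fatouville 2500 mg/L 0.05 ± 0.82 (SD, n = 3) and for Tancarville 2500 mg/L 0.85 ± 1.14 (SD, n = 3). Each neighbouring pair in this order differed by less than the standard deviation of either group. Control 2 lay inside the range of the 3 pools for 88 members in the Fatouville 350 mg/L group and for 33 in the Fatouville 2500 mg/L group. The same held for 93 members in the Tancarville 350 mg/L group and for 66 in the Tancarville 2500 mg/L group. At Fatouville 2500 mg/L, Control 2 lay below all 3 pools for 35 members and above all 3 for 33.

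Comparisons among the 12 exposed libraries did not use the control pools and were tested in 1 limma model over 18799 genes, all 101 members among them, with Benjamini-Hochberg adjustment over all genes in each comparison. The p-values measure the spread between pools. The comparisons share pools with each other, so their values are not independent. With limma, 0 members passed an adjusted p of 0.05 in any of the 5 comparisons.

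The first question was whether the members differed between 2500 and 350 mg/L of Fatouville elutriate. Their median log2 fold change was 0.98, with a median of 4.58 in the second set, where all 33 values were positive, and of -0.05 in the first set. The median over all genes tested was -0.01. Without Fatouville 350 mg/L pool 3 the members' median was 0.43, and without Fatouville 2500 mg/L pool 3 it was 1.68. A rise of at least 2-fold was seen in 50 members, 31 of them in the second set, and in 5.4% of all genes tested. Many second-set genes were low in the controls and at Fatouville 350 mg/L and reached the required mean count of 100 only through the exposed pools where they were high. Their rises here and for Tancarville were therefore favoured by the choice of members, and nothing is read from their counts against those of all genes. A fall of that size was seen in 9 members and in 0.681% of all genes. The members' median SE was 1.28 on the log2 scale, against 0.188 over all genes tested, so nothing is read from this count either.

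With limma 0 members were called in this comparison, where 1.77% of all genes were called higher and 0.133% lower. The smallest adjusted p of a member was 0.112. At an unadjusted p below 0.05, 10 members were higher, against 11.1% of all genes, and 1 was lower, against 7.25%. Of the 10 higher members, 9 were in the second set, or 27.3% of it, and 1 in the first set, or 1.69%. edgeR's quasi-likelihood test called 0 members, against 1.77% of all genes higher and 0.112% lower. DESeq2 called 15 members higher, 13 of them in the second set, where it called 4.42% of all genes, and it called 1 member lower, against 0.825%. The 3 pools at 2500 mg/L lay above all 3 at 350 mg/L in 25 members, 24 of them in the second set, against 12.1% of all genes, and below them in 1 member, against 8.89%. The mean count required of members favoured the second-set genes in all these counts, the 9, the 13 and the 24. The set was also drawn from these same pools among others. Nothing is therefore read from its counts against those of all genes. The number of calls among the members depended on the test used.

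LOC111706338 was the 1 member whose Fatouville 2500 mg/L pools all lay below those at 350 mg/L. It had 447, 261 and 139 at 350 mg/L and 82.7, 63.6 and 79.6 at 2500 mg/L. The log2 fold change was -1.74 (SE 0.49, limma adjusted p = 0.112), lower in 3 of 3 pools. Its adjusted p was 0.00101 by DESeq2, 0.0726 by edgeR and 0.0446 by limma without Tancarville 350 mg/L pool 2. LOC111696834, of the second set, had 11.0, 11.3 and 5.79 at 350 mg/L and 814, 870 and 107 at 2500 mg/L. Its groups did not overlap, and the log2 fold change was 5.41 (SE 1.76, limma adjusted p = 0.165), higher in 3 of 3 pools. It was 4.89 without Fatouville 2500 mg/L pool 2 and 6.40 without pool 3 of that group.

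For Tancarville elutriate, the members' median log2 fold change between 2500 and 350 mg/L was 0.88, and 92 of the 101 values were positive. The median was 0.48 in the first set and 2.03 in the second, against 0.01 over all genes tested. Without Tancarville 2500 mg/L pool 3 the members' median was 0.33, and without pool 2 of that group it was 1.40. A rise of at least 2-fold was seen in 46 members and in 2.96% of all genes, and a fall of that size in 0 members, against 0.442%. The members' median SE was again 1.28, against 0.188 over all genes tested, so nothing is read from these counts. The 3 pools of each group overlapped in every member, whereas 6.68% of all genes had all 2500 mg/L pools above and 6.69% below.

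No gene of the table was called by limma in that comparison (0.0% higher and 0.0% lower), and the smallest adjusted p of a member was 0.916. At an unadjusted p below 0.05, 2 members were higher, against 2.64% of all genes, and 0 were lower, against 2.39%. These were LOC111706338, whose log2 difference was 1.39 (SE 0.49, limma adjusted p = 0.916), and LOC111711607, with 0.63 (SE 0.27, limma adjusted p = 0.916), or 0.39 without Tancarville 2500 mg/L pool 2. edgeR called 0 genes, and DESeq2 called 0 members and 0.00532% of all genes higher. LOC111706338 had 49.3, 141 and 44.3 at 350 mg/L and 236, 176 and 138 at 2500 mg/L, so that its groups met at their edges.

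At 350 mg/L the members' median log2 fold change of Fatouville against Tancarville was -0.88, and 8 of the 101 values were positive. It was -0.80 in the first set and -1.29 in the second, against 0.00 over all genes tested. Without Tancarville 350 mg/L pool 1 the members' median was -0.11, and without Fatouville 350 mg/L pool 1 it was -1.44. A fall of at least 2-fold was seen in 42 members, 21 of them in the second set, and in 1.52% of all genes. A rise of that size was seen in 2 members, against 0.75%. The mean count required of members favoured second-set genes that were high in single pools. The members' median SE was 1.28 on the log2 scale, against 0.188 over all genes tested. Nothing is therefore read from these counts against those of all genes. The groups overlapped in every member, against 5.34% of all genes with no overlap and Fatouville higher and 4.78% with Fatouville lower. Compared by pool number, the members' median log2 level relative to the exposed median was 0.17 against 1.37 in pools 1, -0.64 against -0.39 in pools 2 and -1.92 against -0.91 in pools 3. It was lower in Fatouville at 3 of 3 pool numbers, as it was in the first set, though the labels do not say that the numbers pair the pools. In the second set Fatouville was higher in pools 2, at -0.73 against -1.52. No test was made of these medians.

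limma, edgeR and DESeq2 each called 0 genes of the table at 350 mg/L (0.0% in either direction by limma). At an unadjusted p below 0.05 limma had 1 member higher, LOC111706338, against 2.07% of all genes, and 0 lower, against 1.91%. LOC111706338 was higher in the Fatouville group by 1.89 on the log2 scale (SE 0.49, limma adjusted p = 0.996), with values of 447, 261 and 139 against 49.3, 141 and 44.3, which just overlapped. LOC111717860 had the second smallest p, with a log2 difference of -3.20 (SE 1.801, limma adjusted p = 0.996). That difference was -5.21 without Tancarville 350 mg/L pool 2 and -2.16 without pool 1 of that group. With the replicate number as a block, limma also called 0 members.

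At 2500 mg/L the medians of the first and second sets lay on different sides of the site comparison. The sets were drawn from these same pools among others, and genes within a set move together, so this is a description. The median log2 fold change of Fatouville against Tancarville was -1.13 in the first set, where 1 of 59 values was positive, and 0.79 in the second, where 28 of 33 were positive. It was -0.73 over all members and 0.01 over all genes tested. Without Fatouville 2500 mg/L pool 3 the members' median was -0.11, and without Tancarville 2500 mg/L pool 2 it was -1.19. A fall of at least 2-fold was seen in 35 members, 34 of them in the first set, and in 0.825% of all genes. A rise of that size was seen in 15 members, 13 of them in the second set, and in 3.22% of all genes. The members' median SE was 1.28 on the log2 scale, against 0.188 over all genes tested. Nothing is therefore read from these counts against those of all genes.

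limma called 0 members at 2500 mg/L, where it called 1.37% of all genes higher and 0.261% lower, and the smallest adjusted p of a member was 0.168. At an unadjusted p below 0.05, 0 members were higher, against 11.0% of all genes, and 2 were lower, against 7.64%. edgeR called 0 members, against 1.13% of all genes higher and 0.191% lower, and DESeq2 called 1 member lower, LOC111716345, where it called 1.43% of all genes lower. For LOC111716345 the limma log2 fold change was -2.28 (SE 1.13, limma adjusted p = 0.328), and the DESeq2 adjusted p was 0.0264. Its Fatouville pools, at 2453 to 4535, overlapped the Tancarville pools, at 3398 to 42065. All Fatouville pools lay below all Tancarville pools in 5 members, against 10.9% of all genes, and above them in 0 members, against 12.0%.

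Those 5 members were LOC111711607 and LOC111706338, the 2 members with the smallest p, and LOC111702298, LOC111700099 and LOC111709797, which were named after their values were seen. LOC111711607 had 75.1, 69.9 and 94.4 in the Fatouville pools and 102, 183 and 124 in the Tancarville pools. Its log2 fold change was -0.73 (SE 0.27, limma adjusted p = 0.168), lower in 3 of 3 pools. For LOC111706338 it was -1.25 (SE 0.49, limma adjusted p = 0.215), also lower in 3 of 3 pools.

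The last comparison asked whether the change with concentration differed between the sites. The median difference, Fatouville minus Tancarville, was 0.25 over the members, -0.43 in the first set and 2.16 in the second, on the log2 scale. The members' median turned negative in 7 of the alternatives and was -0.43 without Tancarville 2500 mg/L pool 2 and 0.74 without Fatouville 2500 mg/L pool 3. limma and edgeR called 0 genes of the table (0.0% in either direction). At an unadjusted p below 0.05 limma had 0 members higher, against 4.92% of all genes, and 2 lower, LOC111706338 and LOC111711607, against 2.92%. LOC111706338 had a difference of -3.14 (SE 0.70, limma adjusted p = 0.373), and its DESeq2 adjusted p was 0.00055. It was the 1 member called by DESeq2, which called 0.0213% of all genes lower. Its level was lower at the higher Fatouville concentration and higher at the higher Tancarville concentration.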

How the data were processed

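Whole adult males were sequenced as 15 pools, and HTSeq 0.11.2, STAR, DESeq2 and Salmon are listed in the submitters' processing notes. Their roles and the build, annotation and strand option were not given in the sources used here. Values the authors deposited were a signal per gene and library, the normalised count, and a score, Cook's distance. Tested on the values, 100% came out as whole reads (tolerance 1e-06), so reads were recovered for the counting intervals, edgeR and DESeq2.

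Under R 4.3.3, limma 3.58.1 tested log2(value + 1) with an intensity trend and robust moderation, over the 12 exposed libraries with a term per group. Genes had to reach 10 in 3 or more of these libraries, and a gene was called at an adjusted p below 0.05, 2-sided. A fold change on this scale understates that of genes with few reads. edgeR 4.0.16 and DESeq2 1.42.0 were alternatives, as were other scalings, filters and pseudocounts, all 15 libraries, a replicate block and leaving out each pool. Each test was checked on simulated data in which every gene had the same small scatter between pools. That check does not cover genes that vary as widely between pools as the members do. DESeq2 left 1 member, LOC111696834, without an adjusted p, and it stayed missing.

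Same-numbered pools deviated together between Fatouville and Tancarville at 350 mg/L (r of 0.103, 0.320 and 0.362). The labels do not say that the numbers pair the pools, and the main test had a term per group only. The replicate number entered as a block only in alternative fits. Pools of unlike number were not compared, so whether the numbers pair these groups was not tested. In each other pair of groups at least 1 of the 3 correlations was 0.1 or less.

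With no names for the identifiers (20 lists of product names matched 0), the rule named 4 members of highest ratio, the last member inside the threshold and the first genes outside it, the 2 most abundant, the 2 with the highest and 2 with the lowest correlation with the profile, and in each comparison the 2 with the smallest p. Members, lists and rules were chosen with earlier results of these data known.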

Additional observations from a re-analysis of the deposited data

How the results depend on the processing

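limma called 0 members in each comparison, and DESeq2 moved that count to 16 for the Fatouville concentrations, 1 for the sites at 2500 mg/L and 1 for the interaction. Leaving out each pool in turn gave 0 to 1 members for the Fatouville concentrations, the 1 being LOC111706338 without Tancarville 350 mg/L pool 2, and 0 in every other comparison. Over all genes, limma's 358 calls for the Fatouville concentrations became 1 with all 15 libraries in the model and 986 by DESeq2, and lay between 38, without Fatouville 2500 mg/L pool 3, and 1097, without Fatouville 2500 mg/L pool 1. The 306 calls between sites at 2500 mg/L became 0 and 875, and lay between 15, without Tancarville 2500 mg/L pool 1, and 1091, without Fatouville 2500 mg/L pool 1. The interaction's 0 became 49 by DESeq2 and up to 75 without Fatouville 2500 mg/L pool 1, and the Tancarville concentrations' 0 became 1 by DESeq2. The cause of these moves was not tested. The replicate block gave 0 members called in every comparison, as did the block in the 6 libraries at 350 mg/L alone, chosen after seeing the data, so it changed no member's call. The members' median log2 fold change kept its sign under all alternatives except for the interaction, where it ran from -0.43 to 0.74. The rule gave from 78 to 143 genes with other thresholds. It gave 103 with TMM scaling, which shared all 101 members, and 100 with scaling by total reads, which shared 98. Scaling by total reads moved the median gene by at most 0.129 on the log2 scale. Few reads in Control 2 limit the ratios of the second set, and 3 pools a group limit every test.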
